A study of Rattus norvegicus with 24 samples.

Results

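In the lung of neonatal rats, 126 genes stood on opposite sides of vehicle with 2 synthetic glucocorticoids, dexamethasone and desisobutyryl ciclesonide. They were chosen from the mean of 4 libraries a group in CPM, which scales each library's counts to the same total of gene counts, with 0.5 CPM added to both sides of each ratio. A member had a fold of at least 1.4 above vehicle with one drug and of at least 1.4 below vehicle with the other, and a mean of at least 5 CPM in its highest lung group. Of 30560 Ensembl identifiers in the files, 12761 reached 5 CPM, and the 126 members were 0.987% of these. In 70 members dexamethasone stood above and desisobutyryl ciclesonide below vehicle (called dexamethasone-high here). In the other 56, dexamethasone stood below and desisobutyryl ciclesonide above (dexamethasone-low). Because lung values chose the members, all lung values, with the counts of lung calls set beside their background, are descriptions. Liver, which the rule did not use, is where tests bear on the members, although lung and liver libraries may come from the same pups.

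The libraries came from wild-type Sprague Dawley pups at postnatal day 6. All pups had 5 daily subcutaneous injections starting on postnatal day 1, and tissue was collected 24 hours after the last. The control groups received the vehicle, 2.5% ethanol, the dexamethasone groups 0.1 mg/kg and the desisobutyryl ciclesonide groups 1.25 mg/kg. Lung and liver each gave 4 libraries per treatment, 24 in all. The drug doses were not matched, so each drug is set against vehicle, and the same vehicle libraries serve both. The tissues are mixtures of cells, so fewer cells of a type and less RNA per cell cannot be told apart.

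Glucocorticoids bind the glucocorticoid receptor, a transcription factor present in most cells, which raises the expression of some genes and lowers that of others. In the newborn lung they hasten maturation of the surfactant-producing epithelium and thin the walls between air spaces, and dexamethasone has long been given to preterm infants with lung disease. Ciclesonide is an inhaled prodrug that esterases cleave to desisobutyryl ciclesonide, its active form at the receptor. The liver is a classical target of glucocorticoids, which induce its enzymes of glucose synthesis and amino acid breakdown.

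The identifiers carry no gene names in the files, and none of the 30560 matched the gene table at hand, so members are described by identifier, level and number. The markers of lung, liver and single cell types could not be looked up either, and the tissue labels were not checked against them. The depth was 15839958 to 27881158 gene counts per lung library and 15397992 to 26194384 per liver library. Unaligned reads took 0.801% to 1.4% of the entries in the 8 desisobutyryl ciclesonide libraries and 1.88% to 3.5% in the other libraries. The deposited names number those 8 libraries in a series of their own, so library series and drug cannot be told apart in any comparison with desisobutyryl ciclesonide. In lung dexamethasone replicates 3 and 4, 35 genes, none of them a member, were at least 4-fold above all other lung libraries. These genes were picked for that, and no other pair of lung libraries was counted in the same way. Their summed level was 3092 and 9208 CPM in dexamethasone replicates 3 and 4. It was at most 232 CPM in any other lung library, in desisobutyryl ciclesonide replicate 4.

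**Figure D1:**
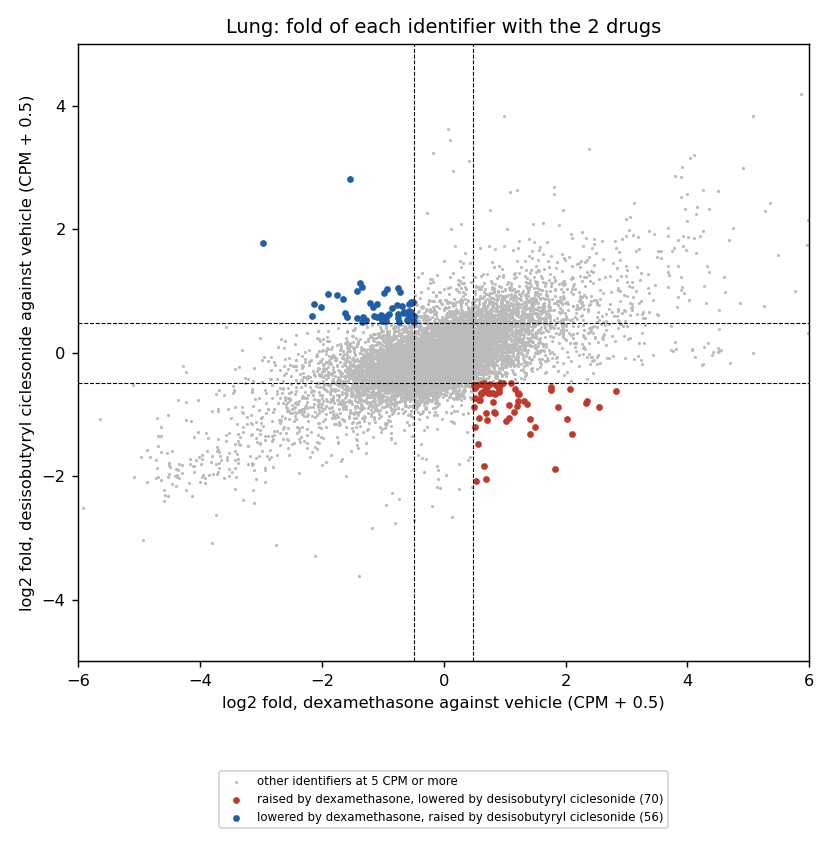
Log2 fold of each identifier at 5 CPM or more in lung, with dexamethasone on the x axis and desisobutyryl ciclesonide on the y axis, both against vehicle on CPM + 0.5. Dashed lines mark the fold of 1.4, red points are the 70 dexamethasone-high and blue points the 56 dexamethasone-low members, and 13 other identifiers lie outside the axes. Both ratios share the vehicle libraries.

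The 70 dexamethasone-high members were of moderate abundance. Their vehicle means in lung ran from 1.22 to 286.7 CPM with a median of 8.73 CPM. Under vehicle, 21 were below 5 CPM, 31 reached 10 CPM and 4 reached 100 CPM. With dexamethasone the median of the member means was 18.04 CPM, and with desisobutyryl ciclesonide it was 4.31 CPM. The dexamethasone fold ran from 1.404 to 7.14 (median 1.79) and the desisobutyryl ciclesonide ratio from 0.237 to 0.714 (median 0.630). Dexamethasone gave the larger departure from vehicle in 47 members and desisobutyryl ciclesonide in 23. A fold of 2 was reached with dexamethasone in 27 members, with desisobutyryl ciclesonide in 15 and with both in 8.

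ENSRNOG00000067610 stood furthest from vehicle on both sides, by the smaller of its 2 departures. Its lung level was 9.44, 10.7, 11.4 and 11.8 CPM in vehicle replicates 1 to 4. With dexamethasone it was 47.2, 48.9, 30.1 and 31.99 CPM, and with desisobutyryl ciclesonide 1.28, 1.77, 3.60 and 3.66 CPM. None of the 3 groups overlapped another, and its means were 10.8 ± 1.04, 39.5 ± 9.88 and 2.58 ± 1.23 CPM (SD, n = 4 each). The folds on CPM + 0.5 were 3.54 with dexamethasone and 0.272 with desisobutyryl ciclesonide.

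ENSRNOG00000069059, the next by that measure, was less abundant. Under vehicle it stood at 2.64, 2.15, 2.05 and 2.69 CPM in lung. It stood at 8.99, 9.53, 5.41 and 4.63 CPM with dexamethasone, above every vehicle library, and at 0.456, 0.733, 0.793 and 0.631 CPM with desisobutyryl ciclesonide, below every vehicle library. In both genes dexamethasone replicates 1 and 2 were higher than replicates 3 and 4.

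The members close to the threshold were many. The nearest inside had a smaller fold of 1.401 and 1.404, and the nearest outside had 1.399 for both. Raising the fold to 1.5 left 43 dexamethasone-high members and raising it to 2 left 8.

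**Figure D2:**
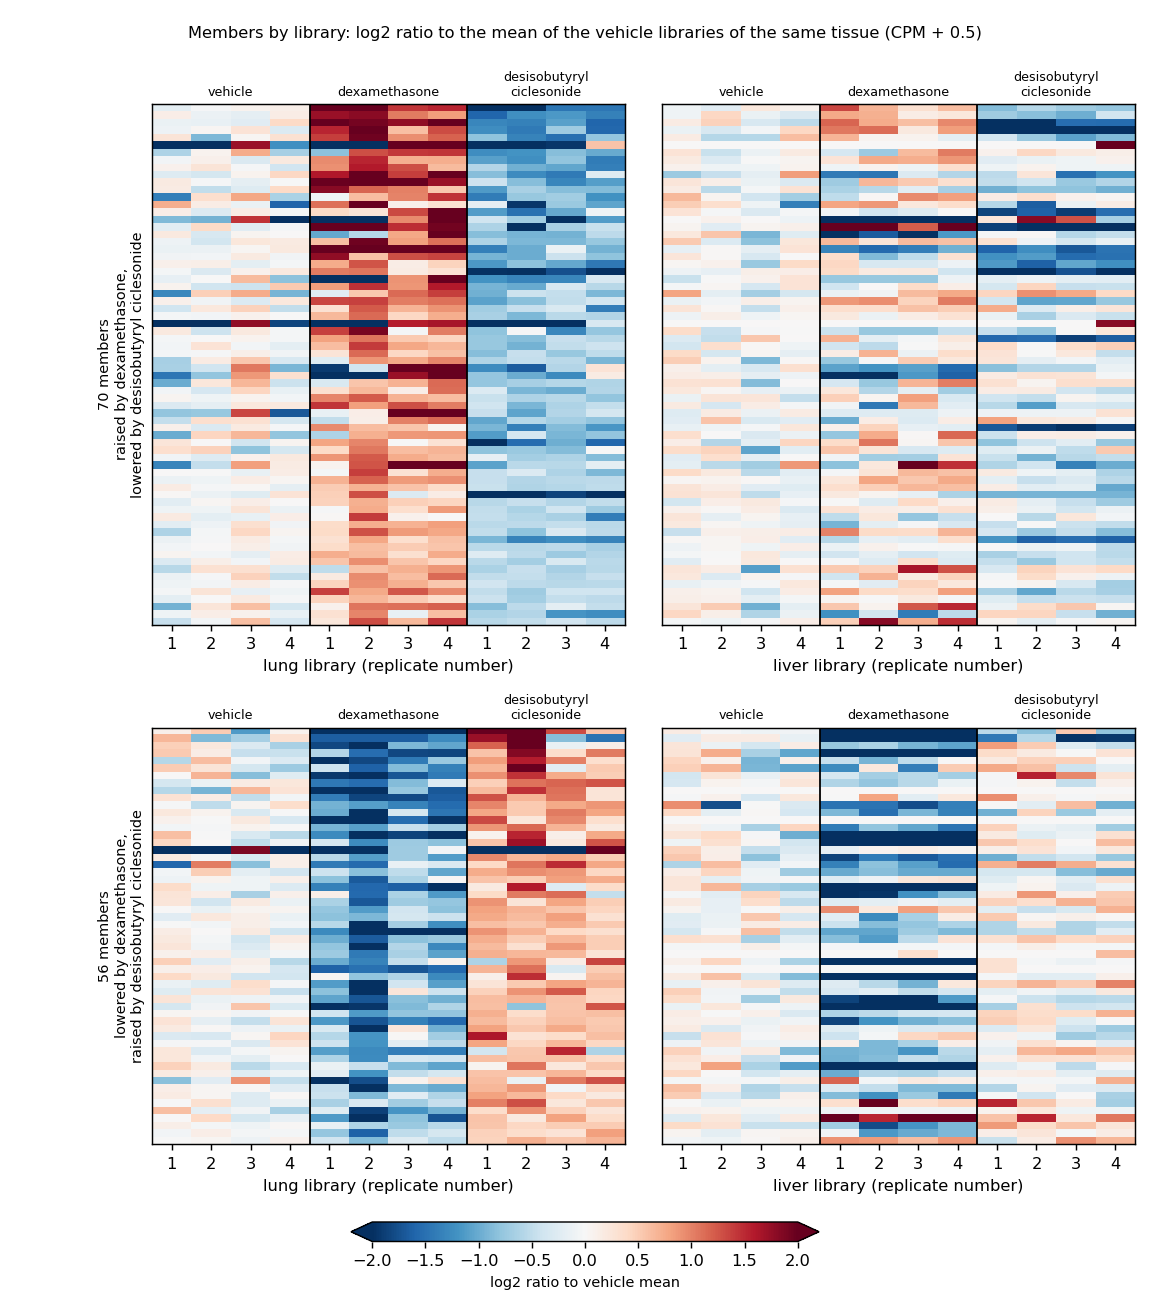
Log2 ratio of each library to the vehicle mean of its tissue (CPM + 0.5, clipped at ±2), members in rows and libraries in columns, with lung on the left and liver on the right. The upper panels hold the 70 dexamethasone-high members and the lower panels the 56 dexamethasone-low members, in order of the smaller of their 2 lung departures. The lung colours follow from the rule, and the liver panels show blue with desisobutyryl ciclesonide in part of the upper rows and blue with dexamethasone in many of the lower rows.

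Library by library, the median log2 ratio to the vehicle mean over the 70 members was 0.46, 1.06, 0.77 and 0.94 in lung dexamethasone replicates 1 to 4. It was -0.77, -0.83, -0.68 and -0.63 with desisobutyryl ciclesonide. The same medians over all 12761 identifiers lay between -0.21 and -0.07 in these 8 libraries. All 4 dexamethasone libraries were above all 4 vehicle libraries in 36 of the 70 members, against 20.2% of 16108 genes tested. All 4 desisobutyryl ciclesonide libraries were below in 41, against 24.1%. Both held in 30, against 1.38%, and neither in 23. By edgeR's quasi-likelihood test at an adjusted p of 0.05, 53 passed as higher with dexamethasone (26.9% of all genes tested did) and 31 as lower with desisobutyryl ciclesonide (12.3%). The rule used these contrasts, and nothing is read from these counts.

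Single libraries carried much of some members. Dexamethasone replicate 2 was the highest of its group in 38 members and replicate 4 in 26, and the same shares over all identifiers were not counted. In 7 members dexamethasone replicates 1 and 2 both lay under the vehicle mean. Their summed level was 132, 183, 677 and 350 CPM in vehicle replicates 1 to 4. It was 20.1, 62.7, 1052 and 3052 CPM with dexamethasone, and 191, 162, 125 and 343 CPM with desisobutyryl ciclesonide. The sum was highest in dexamethasone replicate 4. One gene made up 867 of the 1052 CPM in replicate 3, and without it the other 6 summed to 184.5 CPM there and 445.5 CPM in replicate 4, against 200.2 CPM in vehicle replicate 3 and at most 49.7 CPM elsewhere in lung. Vehicle replicate 3 was the highest vehicle library in 6 of the 7, and in 39 of all 70 members. Because the 7 were picked for low replicates 1 and 2, none could meet the rule without dexamethasone replicates 3 and 4. These replicates were those in which the 35 non-member genes stood apart, and the part of that in the 7 members was not tested.

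The 56 dexamethasone-low members had vehicle means of 1.06 to 533 CPM in lung, with a median of 11.9 CPM. Under vehicle, 18 were below 5 CPM, 30 reached 10 CPM and 5 reached 100 CPM. The median of the member means was 5.21 CPM with dexamethasone and 20.7 CPM with desisobutyryl ciclesonide. The dexamethasone ratio ran from 0.128 to 0.714 (median 0.522) and the desisobutyryl ciclesonide fold from 1.41 to 6.99 (median 1.56). Dexamethasone gave the larger departure in 38 and desisobutyryl ciclesonide in 18. A fold of 2 was reached with dexamethasone in 26, with desisobutyryl ciclesonide in 7 and with both in 5.

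ENSRNOG00000024115 led this direction. In lung it stood at 45.6, 60.8, 19.2 and 44.8 CPM in vehicle replicates 1 to 4. It stood at 4.74, 1.59, 7.24 and 6.49 CPM with dexamethasone and at 207.5, 210.6, 106 and 63.5 CPM with desisobutyryl ciclesonide. No group overlapped another, although desisobutyryl ciclesonide replicate 4 lay close to vehicle replicate 2. The means were 42.6 ± 17.2, 5.02 ± 2.51 and 146.9 ± 73.9 CPM (SD, n = 4 each), which gave folds of 0.128 and 3.42.

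ENSRNOG00000002889 came next, and its place rested on few libraries. Its lung level was 1.98, 0.342, 0.484 and 1.43 CPM with vehicle. Dexamethasone replicates 1, 2 and 3 had no count, which allows up to 0.136, 0.159 and 0.128 CPM at 3 counts, and replicate 4 had 4 counts (0.143 CPM). With desisobutyryl ciclesonide it was 4.65, 36.5, 0.366 and 0.0631 CPM. Replicates 3 and 4 of that group were within or below the vehicle range, so its mean of 10.4 ± 17.5 CPM (SD, n = 4) was carried by replicates 1 and 2.

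**Figure D3:**
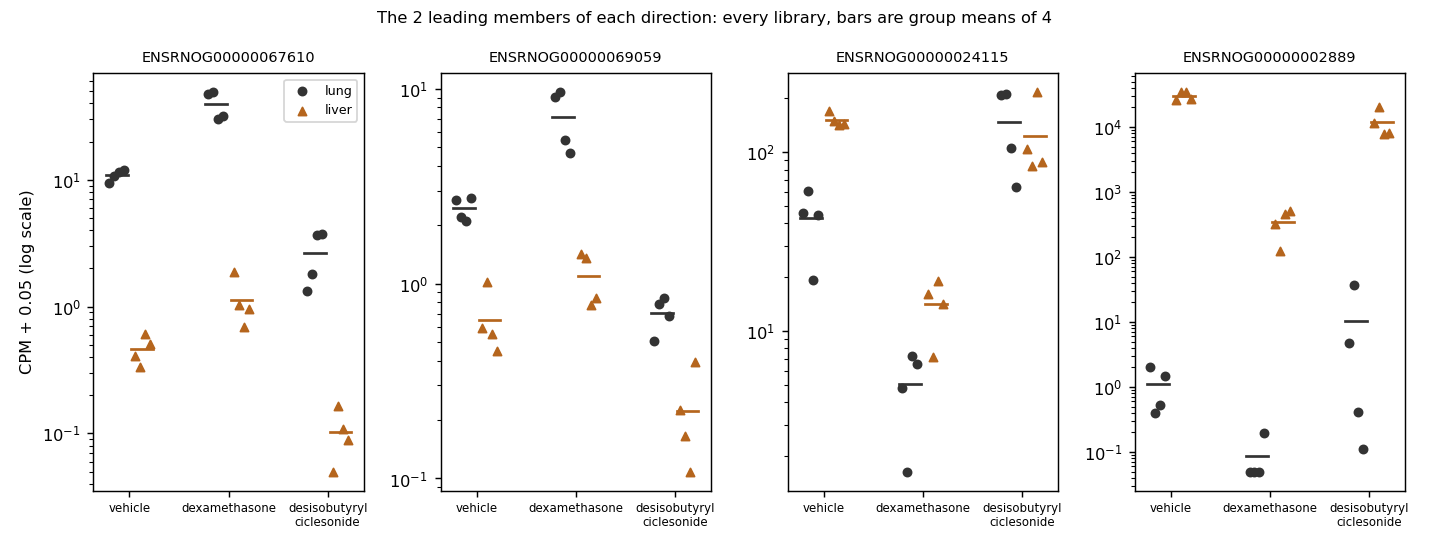
CPM + 0.05 on a log axis in every lung (circles) and liver (triangles) library of the 2 leading members of each direction, with the treatments along the x axis and bars at the means of 4 libraries. ENSRNOG00000024115 and ENSRNOG00000002889 are low with dexamethasone in both tissues, and the lung values of ENSRNOG00000002889 with desisobutyryl ciclesonide run from 0.0631 to 36.5 CPM.

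At the threshold of this direction, the nearest members inside had a smaller fold of 1.401 and 1.408 and the nearest outside 1.3996 and 1.398. The median log2 ratio to vehicle over the 56 members was -0.82, -1.62, -0.72 and -0.99 in dexamethasone replicates 1 to 4, so replicate 2 lay lowest. Replicate 2 also lay lowest over all 12761 identifiers, at -0.21, against -0.14, -0.07 and -0.11 in replicates 1, 3 and 4. It was the lowest of its group in 40 members, and the same share over all identifiers was not counted. With desisobutyryl ciclesonide the medians were 0.63, 0.68, 0.65 and 0.50. All 4 dexamethasone libraries were below all vehicle libraries in 37 members, against 30.6% of genes tested. All 4 desisobutyryl ciclesonide libraries were above in 28, against 10.9%. Both held in 21, against 0.608%, and neither in 12. In edgeR's test 39 passed as lower with dexamethasone (28.7% of genes tested did) and 26 as higher with desisobutyryl ciclesonide (11.8%), again in the contrasts the rule had used.

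Membership moved when a lung library was left out. The dexamethasone-high set held 56 to 138 identifiers over the 12 such sets, with 44 to 68 of the 70 members kept. The 138 came without desisobutyryl ciclesonide replicate 4. The dexamethasone-low set held 43 to 76, with 43 to 54 of the 56 kept. In every one of the 12 sets, 25 dexamethasone-high and 24 dexamethasone-low members remained. Without dexamethasone replicates 3 and 4 together, 52 members of each direction remained, and the dexamethasone-low set grew to 158. With TMM-scaled library sizes the sets held 61 and 78, and the dexamethasone-high share of all members was 43.9% against 55.6% with plain totals. Plain CPM put the median of all genes at -0.11 with dexamethasone and -0.09 with desisobutyryl ciclesonide in lung (log2).

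**Figure D4:**
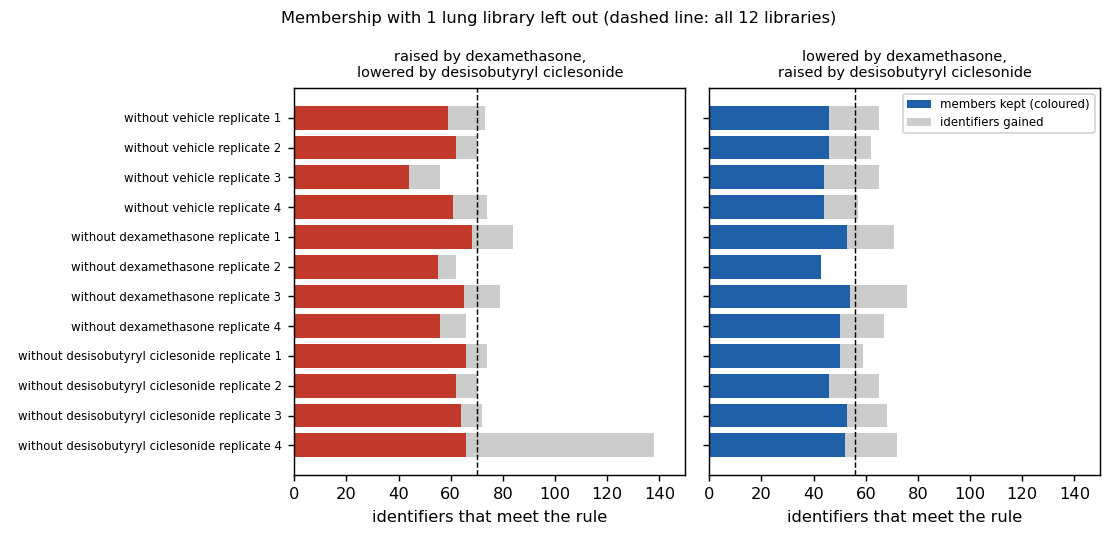
Number of identifiers that meet the rule with each lung library left out, the main members kept in colour and identifiers gained in grey, with the count from all 12 libraries as a dashed line. The dexamethasone-high set reaches 138 without desisobutyryl ciclesonide replicate 4 and 56 without vehicle replicate 3.

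In liver most members were less abundant than in lung. The rule set a minimum level in lung and none in liver, so it favours genes that are richer in lung. The same shares over all identifiers were not counted, so these levels are a description. Of the dexamethasone-high members, 57 of 70 reached 1 CPM in their highest liver group and 31 reached 5 CPM. Their vehicle level was at least 2-fold higher in lung than in liver in 51 and at least 2-fold higher in liver in 4. Of the dexamethasone-low members, 35 of 56 reached 1 CPM and 22 reached 5 CPM, and 2 had no count in any liver library. Their vehicle level was at least 2-fold higher in lung in 35 and in liver in 6. The liver libraries were not used by the rule, but a lung and a liver library that share treatment and number may come from 1 pup.

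The dexamethasone-high members were lower in liver with desisobutyryl ciclesonide more often than genes in general. The share that rose with dexamethasone was 25% in edgeR's test, against 22.5% of all genes, and stood further from the background by the measures that use CPM alone. Shares of members are set beside those of all genes as a description, and the difference between them was not tested. Of the 70, 60 passed the expression filter in liver, 49 of them on the vehicle libraries alone. With desisobutyryl ciclesonide 11 fell and none rose (edgeR's quasi-likelihood test, Benjamini-Hochberg adjusted over 13734 genes), which is 18.3% of those tested, against 2.43% of all genes that fell and 2.09% that rose. At an unadjusted p under 0.05, 23 were lower and 2 higher, against 10.5% and 10.6% of all genes. DESeq2 called 16 lower and 0 higher, against 4.31% and 4.36% of all genes. Of the 49 that pass the filter on vehicle libraries alone, 10 fell (20.4%, against 2.53% of the genes that do so) and 0 rose (against 2.11%). Without liver vehicle replicate 1 or desisobutyryl ciclesonide replicate 4, 1 member passed as higher. The log2 changes of the 11 ran from -3.26 to -1.33, all at least 2-fold, from liver vehicle levels of 0.415 to 101 CPM. All 4 desisobutyryl ciclesonide libraries were below all vehicle libraries in 21 of the 60, against 9.47% of genes tested, and above in 0, against 5.16%. Counted over all 70 without a filter, 28 had a liver ratio of 1/1.4 or less (40%), against 8.78% of the 12761 identifiers, and 4 had 1.4 or more (5.71%, against 5.67%).

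With dexamethasone 15 of the 60 rose in liver and 5 fell, or 8.33%, against 24.9% of all genes. A gene can pass the filter through the libraries in which it is high, and of the 49 that pass on vehicle alone 13 rose (26.5%, against 22.3%) and 5 fell (10.2%, against 26%). The 15 rose by 0.30 to 3.66 on the log2 scale (median 1.15), 9 of them at least 2-fold. The log2 changes of the 5 ran from -7.74 to -1.16. All 4 dexamethasone libraries were above all vehicle libraries in 12 of the 60 (20%), against 12.4% of genes tested. Of the 60, 48 had a log2 change above 0, a share that was not counted over all genes. The median of the 60 was 0.46, against -0.02 over all genes tested. For the 49 that pass on vehicle alone it was 0.35, against -0.03 over the genes that do so. Over all 70 without a filter 18 had a ratio of 1.4 or more (25.7%, against 13.5%) and 10 of 1/1.4 or less (14.3%, against 32.6%). Plain CPM put the median of all genes at -0.24 with dexamethasone in liver, a shift that both shares carry. Of the 15 that rose with dexamethasone in liver, 3 fell with desisobutyryl ciclesonide. The share of all genes with both calls was not counted. Among the 3 was ENSRNOG00000067610, which was tested only through the dexamethasone libraries, so nothing is read from this count.

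Of the 7 members with low dexamethasone replicates 1 and 2 in lung, 4 were tested in liver. All 4 fell with dexamethasone, as 24.9% of all genes did, with log2 changes of -7.74 to -1.69. None fell with desisobutyryl ciclesonide, with which only 2.43% of all genes fell. The most abundant of the 7 stood in lung at 95.7, 151.1, 476.9 and 326.3 CPM with vehicle and at 15.9, 52.4, 867 and 2607 CPM with dexamethasone. In liver it stood at 16350 to 20520 CPM with vehicle, 1601 to 8348 CPM with dexamethasone and 18130 to 22690 CPM with desisobutyryl ciclesonide. Its lung dexamethasone libraries thus lay on both sides of vehicle, while all 4 liver dexamethasone libraries lay below. Among the 52 dexamethasone-high members that stayed without lung dexamethasone replicates 3 and 4, 46 were tested in liver. Of these 14 rose (30.4%, against 22.5% of all genes) and 1 fell (2.17%, against 24.9%) with dexamethasone. The 4 above that fell could not be among the 46, because on replicates 1 and 2 alone they cannot meet the rule. With desisobutyryl ciclesonide 10 fell (21.7%, against 2.43%).

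**Figure D5:**
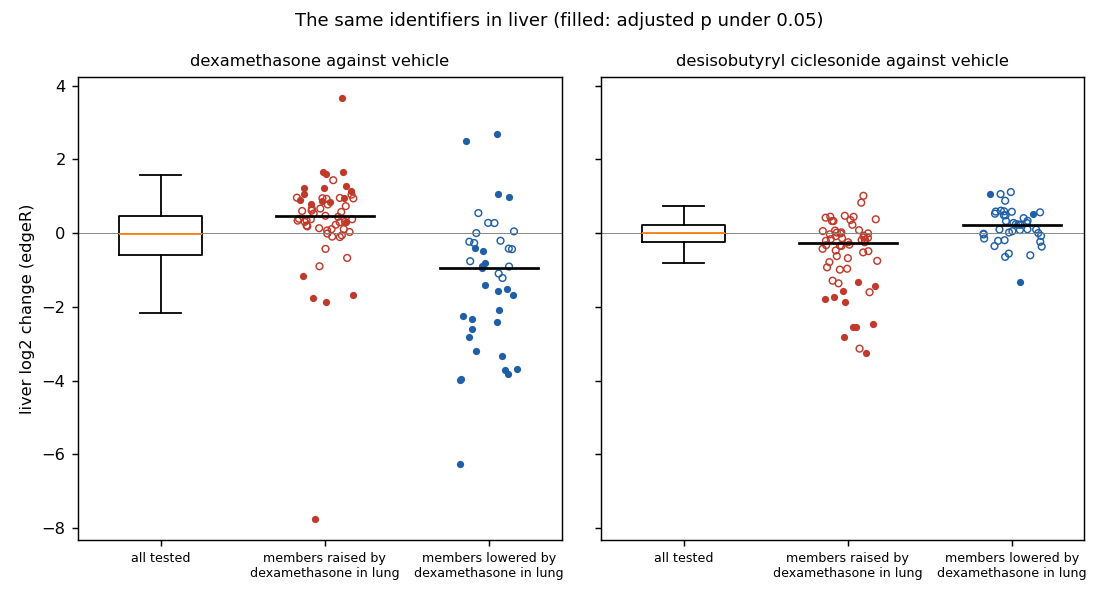
Log2 change in liver by edgeR for all 13734 genes tested (box: quartiles, whiskers: 5th and 95th percentiles) and for the 60 dexamethasone-high and 41 dexamethasone-low members tested, with black bars at the medians and filled points at an adjusted p under 0.05. The medians are 0.46 and -0.96 with dexamethasone and -0.28 and 0.22 with desisobutyryl ciclesonide.

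ENSRNOG00000067610 was scarce in liver, and its 3 groups there lay in the same order as in lung. It stood at 0.359, 0.285, 0.557 and 0.460 CPM with vehicle and at 1.82, 0.972, 0.642 and 0.908 CPM with dexamethasone. With desisobutyryl ciclesonide it stood at 0, 0.115, 0.0584 and 0.0382 CPM, from 4 counts in all against 29 with vehicle. The library at 0 allows up to 0.174 CPM at 3 counts, and no group overlapped another. All 4 dexamethasone libraries but none of the vehicle or desisobutyryl ciclesonide libraries reached the filter's 0.572 CPM. The gene was thus tested only through the group in which it is high, and its log2 change of 1.59 (SE 0.49) with dexamethasone is given as a value with no call. With desisobutyryl ciclesonide the log2 change was -2.81 (SE 0.70, edgeR adjusted p = 0.0336, over the alternatives that tested it 0.0177 to 0.103). This comparison too was entered only through the dexamethasone libraries, so nothing is read from its call. That call was lost without vehicle replicate 1, 3 or 4 (edgeR adjusted p = 0.0535, 0.0953 and 0.0731) and without desisobutyryl ciclesonide replicate 1, 3 or 4 (0.0716, 0.0738 and 0.103).

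ENSRNOG00000069059 did not pass the liver test, which it entered through dexamethasone too, with 1 vehicle library at the filter's level. It stood at 0.403 to 0.967 CPM with vehicle, 0.728 to 1.36 CPM with dexamethasone and 0.0584 to 0.344 CPM with desisobutyryl ciclesonide. Vehicle and dexamethasone overlapped. The log2 changes were 1.04 (SE 0.47, edgeR adjusted p = 0.0825) and -1.60 (SE 0.56, edgeR adjusted p = 0.115).

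Among the dexamethasone-low members the decrease with dexamethasone was found in liver as well. Of the 56, 41 passed the liver filter, 35 of them on the vehicle libraries alone. With dexamethasone 23 fell (56.1%, against 24.9% of all genes tested) and 4 rose (9.76%, against 22.5%). Of the 35 that pass on vehicle alone, 21 fell (60%, against 26%) and 3 rose (8.57%, against 22.3%). The log2 changes of the 23 ran from -6.26 to -0.42 (median -2.33), 18 of them at least 2-fold, from liver vehicle levels with a median of 13.7 CPM. Over all 56 without a filter, 31 had a liver ratio of 1/1.4 or less (55.4%, against 32.6%) and 4 of 1.4 or more (7.14%, against 13.5%). All 4 dexamethasone libraries were below all vehicle libraries in 24 of the 41, against 31.2% of genes tested. The 4 that rose became 2 without liver vehicle replicate 2.

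With desisobutyryl ciclesonide few of the dexamethasone-low members passed the liver test, as few of all genes did. Of the 41, 2 rose (4.88%, against 2.09%) and 1 fell (2.44%, against 2.43%), and at an unadjusted p under 0.05 there were 8 and 2, against 10.6% and 10.5% of all genes. All 3 pass the filter on vehicle alone (5.71% and 2.86% of 35, against 2.11% and 2.53%). The 1 that fell was ENSRNOG00000002889. The median log2 change was 0.22, against -0.01 over all genes, with 28 above 0 and 13 below, shares not counted over all genes. For the 35 that pass on vehicle alone the median was 0.105, against -0.012 over the genes that do so. Over all 56, 8 had a ratio of 1.4 or more (14.3%, against 5.67%) and 3 of 1/1.4 or less (5.36%, against 8.78%). The 2 that rose became 0 without liver vehicle replicate 1, 2 or 4, without dexamethasone replicate 3 and without desisobutyryl ciclesonide replicate 2 or 4. They became 1 without vehicle replicate 3, dexamethasone replicate 1 or 4, or desisobutyryl ciclesonide replicate 1 or 3.

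ENSRNOG00000024115 was more abundant in liver than in lung under vehicle. It stood at 169.1, 149, 141.8 and 143.8 CPM with vehicle and at 16.04, 7.07, 18.9 and 14.2 CPM with dexamethasone. With desisobutyryl ciclesonide it stood at 103.6, 83.9, 216.5 and 87.6 CPM, so 3 libraries lay below the vehicle range and replicate 3 above it. The log2 change was -3.21 (SE 0.34, edgeR adjusted p = 1.03e-05) with dexamethasone and -0.24 (SE 0.31, edgeR adjusted p = 0.712) with desisobutyryl ciclesonide.

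ENSRNOG00000002889 was among the abundant genes of the liver. Its level there was 26035, 34359, 34361 and 27464 CPM with vehicle. It was 316.9, 124.5, 458.9 and 503.4 CPM with dexamethasone and 11388, 20595, 7868 and 7994 CPM with desisobutyryl ciclesonide. No group overlapped another. The log2 change was -6.26 (SE 0.44, edgeR adjusted p = 2.6e-07) with dexamethasone. With desisobutyryl ciclesonide it was -1.33 (SE 0.35, edgeR adjusted p = 0.0447), below vehicle where lung had stood above. Over the alternatives that adjusted p ran from 0.0022 to 0.13. It stayed under 0.05 without liver dexamethasone replicate 2 or 4 or desisobutyryl ciclesonide replicate 2, and rose above 0.05 without each of the other 9 liver libraries.

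Because this gene is so abundant in liver, the summed lung level of genes at least 16-fold higher in vehicle liver than in vehicle lung is set beside it. The 406 such genes, members left out, summed to 1383 to 1617 CPM in vehicle lung libraries, 3327 to 3921 CPM with dexamethasone and 2228, 2970, 2473 and 2824 CPM with desisobutyryl ciclesonide. Within the desisobutyryl ciclesonide group the order of this sum differed from that of the gene: replicate 2 was highest in both, but replicate 4 had the second highest sum and the least of the gene. The part of liver-rich transcripts in its lung level was not tested.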

How the data were processed

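RNA was extracted from lung and liver, polyadenylated RNA was selected and directional dUTP libraries were made, per the labels' protocols. Per the submitters' processing notes, the tools were cutadapt, HISAT2 and HTSeq and the build was mRatBN7.2. Versions, settings and the use of strand are not given in the sources used here, so counts are uncertain for genes that overlap, lie antisense or have a near-identical copy. The files the authors deposited hold raw counts for 30560 Ensembl identifiers and 5 summary rows, which took 16.8% to 31.8% of the entries and were left out of library sizes and tests.

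Members were chosen on plain CPM as the report states. Liver was tested with edgeR 4.0.16 in R 4.3.3 (filterByExpr, TMM, robust quasi-likelihood F-test, 12 libraries in 1 fit, Benjamini-Hochberg over all genes tested, threshold 0.05); lung calls came from a like fit. The fit was tested on simulated data. limma 3.58.1 (voom), DESeq2 1.42.0, other scalings, filters, pseudocounts and thresholds, a replicate block and leaving out libraries were alternatives. A count of 0 allows 3 counts, which covers counting error only.

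The members and lists were chosen with earlier results of these data known. For want of gene names 41 gene and marker lists could not be applied, and the naming rule was reduced to 2 identifiers per direction, those with the largest smaller departure from vehicle in lung. No sequence is printed. The identifiers nearest the threshold are given by value.

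Replicate numbers come from the sample titles, and no label says that they mark litters or animals, so p-values measure only how these libraries vary. Replicates of a group differed by more than sampling noise in all 36 pairs (lowest chi-square of 11.04 per degree of freedom). Lung and liver libraries of 1 treatment and number deviated together (Pearson r across 11298 genes from 0.087 to 0.291 in 12 pairs).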

Additional observations from a re-analysis of the deposited data

Results flagged for a closer look

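There were 24 groups of 4 libraries (the 4 named members, 2 tissues, 3 treatments). In 3 of them a library had a gap to its nearest library beyond Dixon's 95% critical value. By chance about 1 group in 20 does so where values are normally distributed, which counts near 0 are not. ENSRNOG00000024115 stood at 217 CPM in liver desisobutyryl ciclesonide replicate 3 and at 83.9 to 103.6 CPM in the other 3 libraries. ENSRNOG00000002889 stood at 36.5 CPM in lung desisobutyryl ciclesonide replicate 2, where the next highest was 4.65 CPM. The same gene had 0.143 CPM, from 4 counts, in lung dexamethasone replicate 4 and no count in the other 3. With 3 libraries at 0 any count in replicate 4 gives this flag, so nothing is read from it. At 3 counts those libraries allow 0.128 to 0.159 CPM.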

How the results depend on the processing

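The number of members depended mainly on the threshold and on single libraries. With a fold of 1.3, 1.5 or 2 there were 145, 43 or 8 dexamethasone-high and 132, 31 or 5 dexamethasone-low members. With no minimum level there were 132 dexamethasone-high members. Leaving out 1 lung library gave 56 to 138 and 43 to 76, and leaving out dexamethasone replicates 3 and 4 together gave 158 dexamethasone-low members. In liver the 2 dexamethasone-low members higher with desisobutyryl ciclesonide became 1 with limma-voom and with only the 2 groups compared, and 0 to 2 with 1 liver library left out. The 1 that was lower became 0 with limma-voom and with no expression filter, and 0 to 1 with 1 library left out. The 4 higher with dexamethasone became 2 to 4, and the dexamethasone-high members higher with desisobutyryl ciclesonide became 0 to 1. The 5 dexamethasone-high members lower with dexamethasone became 1 among those that stayed without lung dexamethasone replicates 3 and 4. That alternative was chosen after seeing the data. The 4 lost were among the 7 members with low lung dexamethasone replicates 1 and 2. On those replicates alone these members cannot meet the rule. Counting only members that pass the filter on vehicle libraries alone, also chosen after seeing the data, kept all 8 liver counts within 1.5 times. In all, 169 values under other settings stayed within 1.5 times the main count and 39 moved further. The change of a named member in liver kept its side of the threshold in 122 settings, lost it in 20 and reversed in none.

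With the replicate number as a block, dexamethasone-high members gave 13 higher (21.7% of those tested, against 21.2% of all genes) and 5 lower (8.33%, against 23.8%) with dexamethasone and 10 lower (16.7%, against 1.66%) with desisobutyryl ciclesonide. Dexamethasone-low members gave 3 higher (7.32%) and 22 lower (53.7%) with dexamethasone, and 0 higher (against 1.56% of all genes) and 0 lower with desisobutyryl ciclesonide. With this block the liver calls of ENSRNOG00000067610 and ENSRNOG00000002889 with desisobutyryl ciclesonide were lost (edgeR adjusted p = 0.0732 and 0.0983). Within liver, same-numbered libraries of different treatments did not deviate together (r from -0.148 to 0.141 across 11298 genes in 12 pairs, 2 of the 12 best with their own number). With so few libraries a group, this cannot tell whether they share a litter or a batch. Members at a few counts in liver limit what this depth can show.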
